A study of Mus musculus with 27 samples.

Results

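The presynaptic release machinery of olfactory neurons was followed through 9 genes, all of which were on the array: Snap25, Stx1a, Vamp2, Syt1, Syn1, Rab3a, Sv2a, Syp and Slc17a6. Every probe annotated to these symbols was taken, which gave 13 of the 29922 probes of the array and 9 of its 16637 named genes. Snap25, Syt1, Syn1 and Sv2a had 2 probes each and the other 5 genes had 1. The tissue was olfactory mucosa, the sensory lining of the nasal cavity, from female mice of the FVB strain aged 25 days. In occluded and open mucosa, 1 naris of a mouse had been closed by cautery, and the closed side (occluded) and the ventilated side (open) were taken from the same individuals. Normal mucosa came from other mice, which had been given a sham cautery. Each group had 3 biological replicates of 3 arrays each, 27 arrays in all, and the 3 arrays were averaged to 1 value per replicate. Equal replicate numbers of the occluded and open groups were read as the same mouse, and these are called pairs below.

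Olfactory sensory neurons send an axon from the mucosa to the olfactory bulb and release glutamate there. At their terminals a synaptic vesicle is filled with glutamate by a vesicular transporter, held in reserve, docked, and fused with the plasma membrane when calcium enters. The proteins of the terminal are made from RNA in the cell bodies, which lie in the mucosa, while the bulb holds the terminals themselves. Neurons that lose their input are known to adjust their release machinery in a homeostatic manner, and the comparisons asked for signs of such a change in RNA level on the deprived side.

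None of the 9 genes differed between occluded, open and normal mucosa beyond the threshold (limma, adjusted p over all probes under 0.05). All 13 probes lay above the noise limit on all 27 arrays and were saturated on none, so each difference below was measured on both sides. Between the sides, 8 of the 9 genes had a lower mean on the occluded side, down to -0.57 on the log2 scale for Slc17a6, and Syp had a higher mean (0.26), while 49.3% of all probes were lower. The count of lower genes depended on the scaling, since it was 8 with quantile normalization, 7 with no normalization and 4 with median centring of the arrays, where Snap25, Syt1, Vamp2 and Rab3a turned in sign.

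The closed side did differ from the open side in odor-dependent genes. Kirrel2, a cell adhesion gene of olfactory axons, fell by 1.89 ± 0.28 (SE) on the log2 scale in occluded against open mucosa (limma adjusted p = 0.048). S100a5, a calcium-binding protein gene, fell by 2.07 ± 0.18 (adjusted p = 0.0095) as measured. Its probe was saturated on 5 of 9 open, 7 of 9 normal and 0 of 9 occluded arrays, so this size is a lower bound on the fall. In occluded against normal mucosa Kirrel2 gave -1.99 and S100a5 -2.15, the latter again a bound, and neither passed (smallest limma adjusted p = 0.0656). That comparison thus did not call the 2 check genes either. Over the array, 66 probes (0.221%) passed between the sides. That count was 3 in the fit without the individual as a block and 0 when the pair was a fixed term. It was 0 without pair 1, 35 without pair 2 and 6 without pair 3. No 95% interval of a release gene between the sides reached as low as the estimate for Kirrel2, the lowest bound being -1.49 for Slc17a6.

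The promoters of 3 genes are shown because these genes had the differences between the sides that stood out most by size (Slc17a6), by agreement of 2 probes (Syn1) and by lack of overlap (Stx1a). They were chosen after the values were seen. Each run is the 250 bases before a transcription start in the RefSeq promoter table of the GRCm38.p6 assembly, 5′ to 3′ on the strand of the gene, and is the reference sequence rather than that of the FVB strain. Capitals mark the cAMP response element TGACGTCA, the sequence bound by activity-regulated factors of the CREB family, or its 5-base part TGACG, read on both strands. For Slc17a6 the window with a match is shown. Its other listed window (chr7:51621580-51621829) holds neither.
Syn1 (chrX:20920919-20921168, minus strand): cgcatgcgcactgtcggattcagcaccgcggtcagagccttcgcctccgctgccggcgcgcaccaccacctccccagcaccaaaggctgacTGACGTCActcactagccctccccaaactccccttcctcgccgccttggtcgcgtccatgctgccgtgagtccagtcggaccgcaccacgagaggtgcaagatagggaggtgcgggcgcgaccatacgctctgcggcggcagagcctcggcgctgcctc
Stx1a (chr5:135023232-135023481, plus strand): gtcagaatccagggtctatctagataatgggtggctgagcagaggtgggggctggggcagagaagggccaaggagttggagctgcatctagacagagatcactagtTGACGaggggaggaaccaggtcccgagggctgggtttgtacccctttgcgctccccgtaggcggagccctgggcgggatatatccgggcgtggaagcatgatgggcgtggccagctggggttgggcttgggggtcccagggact
Slc17a6, second listed start (chr7:51624387-51624636, plus strand): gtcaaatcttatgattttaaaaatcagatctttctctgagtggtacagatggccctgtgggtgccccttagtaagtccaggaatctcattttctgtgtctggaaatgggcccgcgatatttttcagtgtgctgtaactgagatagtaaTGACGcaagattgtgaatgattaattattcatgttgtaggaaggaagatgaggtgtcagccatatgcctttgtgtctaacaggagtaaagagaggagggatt

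The table held 10 such windows for 7 of the 9 genes, and none was shown for Snap25 and Vamp2, which had no entry. The full element TGACGTCA was found in 1 of the 10 windows, that of Syn1, between 159 and 152 bases before the start, against 508 of 32851 windows of the table (1.55%). The 5-base part TGACG was in 4 of the 10 windows, 1 each of Syn1, Stx1a, Slc17a6 and Rab3a, against 17.8% of all windows, and any window with the full element holds it too. Slc17a6 and Rab3a each had another listed window without it. The core CAGCACC of the RE1 element, the target of a repressor of neuronal genes, was found in the Syn1 window alone among the 10, at 230 to 224 and at 176 to 170 bases before the start, against 5.73% of all windows. The palindrome TCCCNNGGGA, which is read by the Olf/EBF factors of olfactory neurons, was in 0 of the 10 windows and in 0.779% of all. These matches describe letters in a window and were not tested as binding sites.

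The SNARE proteins join the vesicle to the plasma membrane, with Snap25 and Stx1a (syntaxin 1A) on the plasma membrane and Vamp2 (synaptobrevin 2) on the vesicle. Snap25 (probe mMC009864) had log2 levels of 14.30, 14.21 and 14.31 in occluded replicates 1, 2 and 3, of 14.33, 14.29 and 14.22 in open and of 14.71, 14.24 and 14.15 in normal mucosa. The group means were 14.27 ± 0.05, 14.28 ± 0.06 and 14.36 ± 0.30 (SD, n = 3 each). All groups overlapped, and the normal replicate 1 stood above the other 8 values. The occluded minus open difference was -0.0067 ± 0.15 (SE), with a 95% interval of -0.35 to 0.34 and a limma adjusted p of 0.9997, so that occluded levels below 0.784 or above 1.26 times the open level lay outside the interval. The second Snap25 probe (mMR029649) was dim, at intensities of 21.3 to 132, and had group means of 5.93 ± 0.53, 5.88 ± 0.49 and 5.90 ± 0.36. Its difference between the sides was 0.05 ± 0.25.

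Stx1a (mMC008708) was the 1 probe of the set whose occluded and open values did not overlap. Its log2 levels were 13.41, 13.47 and 13.58 on the occluded side, 13.85, 13.60 and 13.66 on the open side and 13.67, 13.63 and 13.49 in normal mucosa. All 3 occluded values lay below all 3 open values, while the normal values overlapped both. The difference between the sides was -0.21 ± 0.13 (95% interval -0.52 to 0.09, limma adjusted p = 0.942), and in the pairs it was -0.44, -0.12 and -0.08. Of all probes, 2.94% had occluded values below the open values without overlap. Pair 1 carried much of the difference, which was -0.10 without it. Against normal mucosa the occluded side differed by -0.11 ± 0.17 and the open side by 0.10 ± 0.17.

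Vamp2 (mMC002181) had levels of 13.01, 13.12 and 13.13 in occluded, 13.03, 13.08 and 13.32 in open and 12.73, 13.05 and 13.13 in normal mucosa. Its lowest value was the normal replicate 1, and the groups overlapped. The difference between the sides was -0.06 ± 0.14 (interval -0.38 to 0.27), which became 0.04 with median centring. Open mucosa stood above normal mucosa at all 3 replicate numbers, by a mean of 0.17 ± 0.18 (limma adjusted p = 0.999995), a pattern that 8.89% of all probes had.

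Syt1, the calcium sensor that triggers fast fusion, was read by 2 probes. The first (mMC018419) had levels of 13.32, 13.20 and 13.30 in occluded, 13.68, 13.27 and 13.04 in open and 13.47, 13.46 and 13.12 in normal mucosa. The open replicates 1 and 3 were the highest and the lowest of all 9 values, so that the occluded values lay within the open range. The difference between the sides was -0.06 ± 0.17 (interval -0.45 to 0.33), with -0.37, -0.08 and 0.27 in the pairs. The second probe (mMR026348) gave -0.23 ± 0.16 (adjusted p = 0.958) and was lower on the occluded side in all 3 pairs, which 12.6% of all probes were. The pair in which they disagreed in sign was pair 3.

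Syn1 encodes synapsin 1, a phosphoprotein that tethers vesicles in the reserve pool. Its probe mMR026679 had levels of 11.19, 10.84 and 10.78 in occluded, 11.54, 11.07 and 11.05 in open and 11.33, 10.89 and 11.13 in normal mucosa. The occluded and open ranges overlapped, because replicate 1 was the highest of its group on both sides, yet each occluded value lay below its open partner. The pairs differed by -0.35, -0.23 and -0.26, and the fitted difference was -0.28 ± 0.16 (interval -0.65 to 0.09, limma adjusted p = 0.928).

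The second Syn1 probe (mMC004343) repeated this order. Its levels were 10.62, 10.28 and 10.32 in occluded, 10.999, 10.59 and 10.78 in open and 10.97, 10.57 and 10.71 in normal mucosa. Here the pairs differed by -0.37, -0.31 and -0.46, and the difference was -0.38 ± 0.15 (interval -0.73 to -0.04, limma adjusted p = 0.755). It was the 1 release-gene probe with an unadjusted p under 0.05, against 6.19% of all probes, and it did not pass after adjustment. Against normal mucosa it differed by -0.34 ± 0.19 on the occluded side (limma adjusted p = 0.999987) and by 0.04 ± 0.19 on the open side. The occluded value of this probe was below the normal value at all 3 replicate numbers, with -0.35, -0.29 and -0.39, and so was that of the other probe, as in 9.96% of all probes.

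Rab3a is a small GTPase of the vesicle membrane that takes part in docking. Its probe (mMC025591) had levels of 11.28, 12.28 and 12.39 in occluded, 11.21, 12.42 and 12.60 in open and 11.43, 12.22 and 12.17 in normal mucosa. Replicate 1 was the lowest in all 3 groups, although the normal mice are other individuals. The difference between the sides was -0.09 ± 0.31, with an interval of -0.80 to 0.62, the widest of the set after Slc17a6.

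Sv2a, a glycoprotein of the vesicle membrane, gave opposite signs on its 2 probes. The probe with the higher mean (mMC017045) had levels of 11.18, 10.79 and 10.61 in occluded, 11.27, 11.03 and 10.75 in open and 11.25, 10.63 and 11.14 in normal mucosa. It was lower on the occluded side in all pairs, by -0.09, -0.25 and -0.14, with a fitted difference of -0.16 ± 0.19 (adjusted p = 0.997). The other probe (mMC021347) had pair differences of -0.18, 0.59 and 0.32 and a fitted difference of 0.24 ± 0.19, so that no direction can be given for the gene.

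Syp, or synaptophysin, a protein of the vesicle membrane that binds Vamp2, was the 1 gene with a higher mean on the occluded side. Its levels (mMC025342) were 9.46, 9.79 and 9.81 in occluded, 8.998, 9.73 and 9.55 in open and 9.90, 9.19 and 9.74 in normal mucosa. The occluded value exceeded its partner in all 3 pairs, by 0.46, 0.06 and 0.26, as it did for 13.8% of all probes. The groups overlapped, and the fitted difference of 0.26 ± 0.20 (interval -0.20 to 0.72, limma adjusted p = 0.978) was smaller than the pooled SD between replicates of 0.33. Against normal mucosa the occluded side differed by 0.08 ± 0.26.

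Slc17a6 encodes VGLUT2, the transporter that loads vesicles with glutamate and the form that olfactory sensory neurons use. It had the largest difference and the largest spread of the 9 genes. Its levels (mMC004694) were 9.83, 11.26 and 11.75 in occluded, 10.35, 11.99 and 12.19 in open and 11.21, 11.95 and 11.27 in normal mucosa. Replicate 1 was low on both sides of the nose, so the ranges overlapped, while each occluded value lay below its open partner, by -0.53, -0.73 and -0.44.

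The fitted difference of Slc17a6 between the sides was -0.57 ± 0.41, which is 0.676 times the open level, with a 95% interval of -1.49 to 0.36 (limma adjusted p = 0.974). Blocking on the pair gave the same difference with an unadjusted p under 0.05 and a limma adjusted p of 0.822. The pooled SD between replicates was 0.85 and that between the 3 arrays of a replicate 0.31. Occluded against normal mucosa gave -0.53 ± 0.52, which ranged from -1.04 without replicate 3 of all groups to 0.03 without replicate 1 of the operated mice. Open against normal mucosa gave 0.04 ± 0.52.

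**Figure D1:**
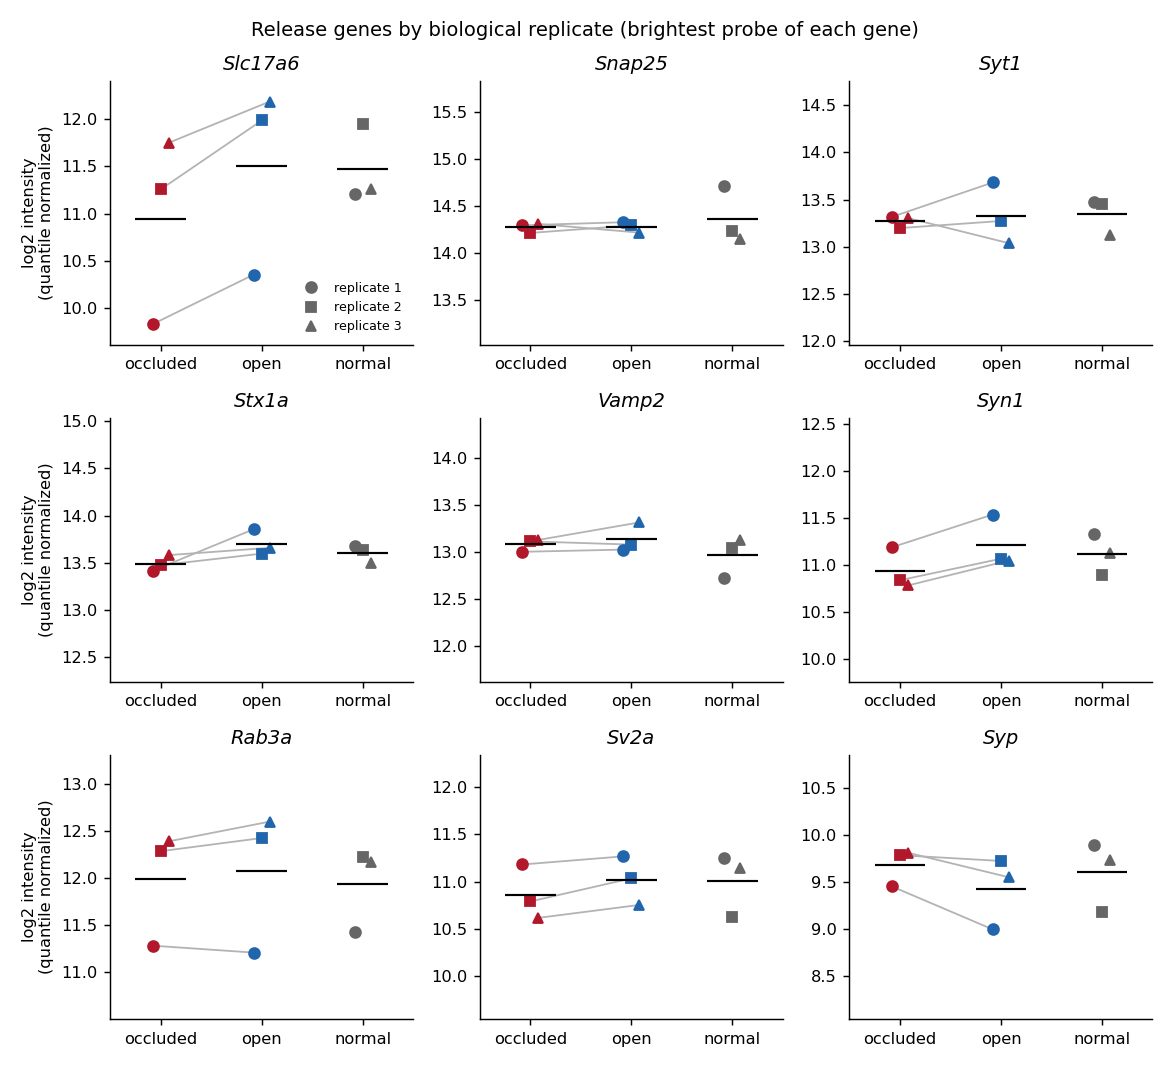
Log2 intensity of the probe with the highest mean for each of the 9 release genes (vertical axes, all spanning the same number of log2 units) in occluded, open and normal mucosa. Points are biological replicates, lines join the occluded and open value of a pair, and bars are group means. Each occluded value lies below its open partner for Slc17a6, Stx1a, Syn1 and Sv2a and above it for Syp, and only the Stx1a values of the 2 sides do not overlap.

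By the probe with the highest mean, 4 of the 9 genes (Slc17a6, Stx1a, Syn1 and Sv2a) were thus lower on the occluded side in all pairs, as 12.6% of all probes were, and 1 (Syp) was higher in all. For Sv2a the other probe differed in sign, and the mean of both probes gave 0.0442. None passed in the fit over all probes, and none of the 9 representative probes had an unadjusted p under 0.05. The median of the 9 differences was -0.09, against 0.0079 over the 16637 named genes. In occluded against normal mucosa, 0 of 9 genes passed (0.00668% of all probes did) and the median was -0.09 against 0.0101. In open against normal mucosa, 0 of 9 passed, as did 0% of all probes, and the median was 0.04 against -0.0038. In both, 0 of the 13 probes had an unadjusted p under 0.05, against 2.88% and 1.59% of all probes. The 3 comparisons share groups, so they are not independent of each other.

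The intervals bound what these 3 pairs could show. Between the sides the SE of a gene ran from 0.13 (Stx1a) to 0.41 (Slc17a6). Against normal mucosa, where other mice are compared, it ran from 0.17 to 0.52. In occluded against normal mucosa the 9 intervals reached from -1.72 to 0.95, the lower end set by Slc17a6 and the upper by Rab3a. The RNA came from whole mucosa, so fewer neurons and less RNA per neuron cannot be told apart in any of these values.

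**Figure D2:**
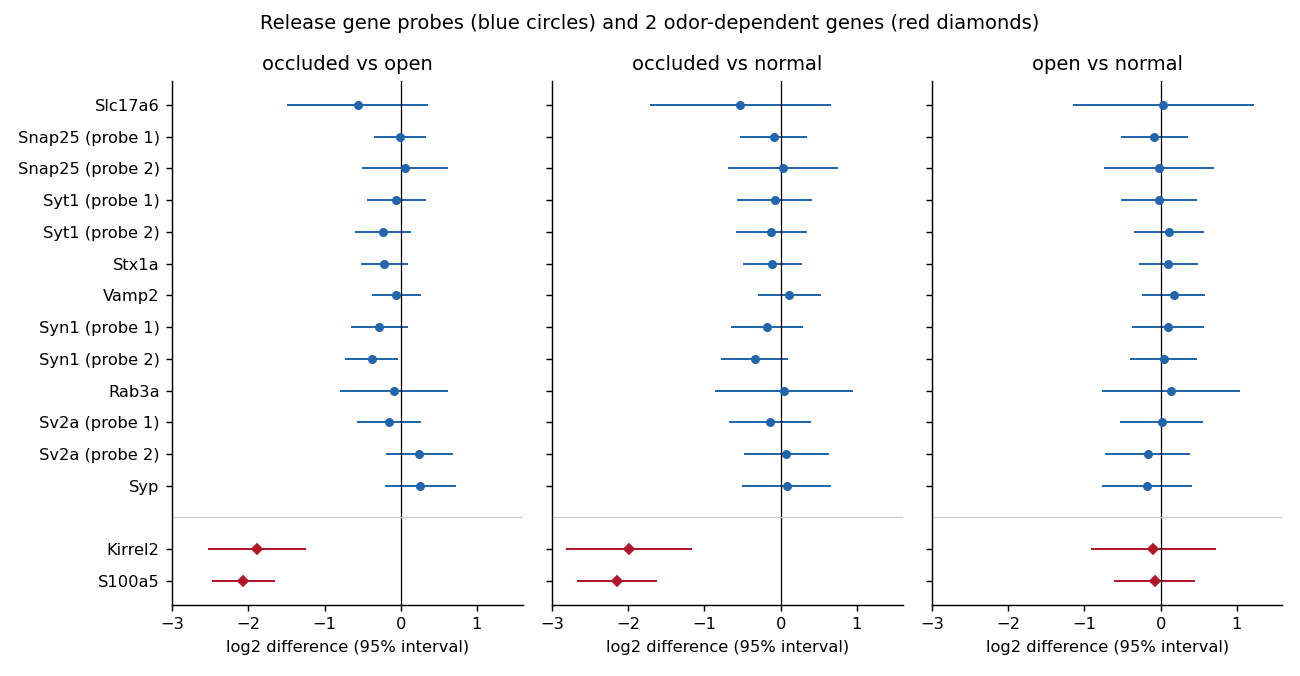
Log2 difference with its 95% interval (horizontal axes) for the 13 release-gene probes (circles) and for Kirrel2 and S100a5 (diamonds) in the 3 comparisons. The intervals of the release genes include 0 in all 3 comparisons except for Syn1 probe 2 in occluded against open mucosa, at -0.73 to -0.04, and the 2 odor-dependent genes lie at -1.89 (Kirrel2) and -2.07 (S100a5) there, the latter a bound because its probe was saturated on 5 of 9 open arrays.

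For several release genes the replicate number accounted for more of the spread than the group did. The sum of squares of the 9 values of a probe was split by group, by replicate number and the remainder. For Rab3a the number took 94.0% and the group 1.3%, which put Rab3a at the 99.4th percentile of the share by number among probes above the noise limit. The mean over groups was 11.30 at number 1, 12.31 at number 2 and 12.38 at number 3. For Slc17a6 the number took 65.1% and the group 12.1%, with means of 10.46, 11.73 and 11.74 at the 3 numbers.

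Stx1a and the second Syn1 probe had the largest shares by group, at 50.1% and 52.3%. In the second Syn1 probe the number took a further 46.5% and only 1.2% was left as remainder. Over the 25880 probes above the noise limit on at least 14 of the arrays, the medians were 12.1% by group, 37.7% by number and 40.7% for the remainder. The labels do not say whether samples with equal numbers were processed together, and the part of processing in these shares was not tested.

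**Figure D3:**
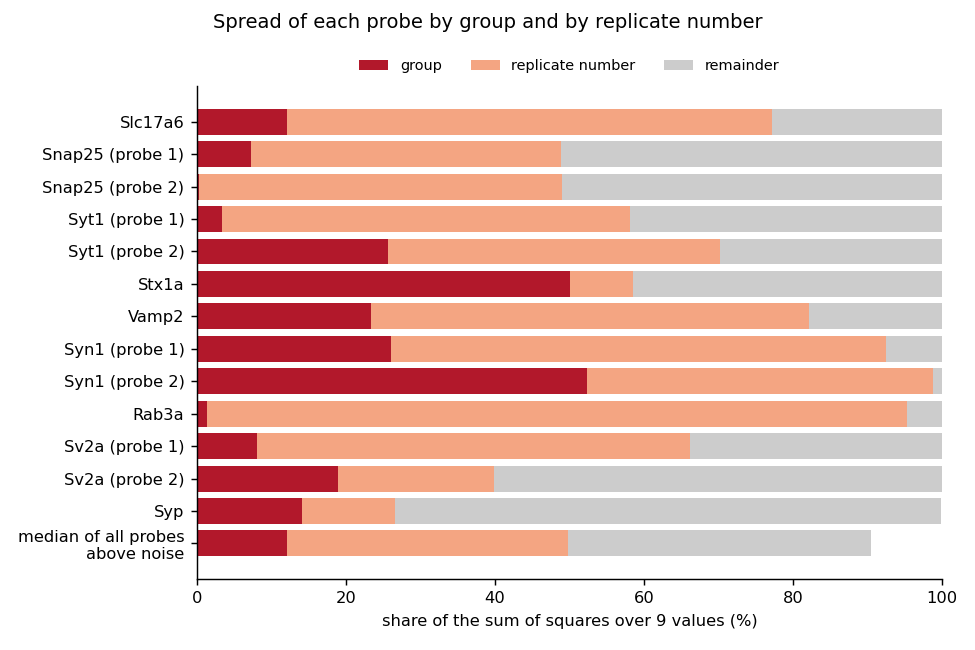
Share of the sum of squares over the 9 values of a probe (percent, horizontal axis) that goes with the group, with the replicate number and with neither. Rab3a has nearly its whole bar in replicate number (94.0%), while Stx1a and Syn1 probe 2 have the largest shares in group (50.1% and 52.3%), and the lowest bar gives the medians over all probes above noise, which need not sum to 100.

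The neurons that hold the release genes were also followed through their own markers. Of 15 measured markers of mature olfactory neurons, 13 had a higher mean on the occluded side than on the open one (14 with no normalization, 14 with median centring), with a median difference of 0.27, although none passed and 5 had an unadjusted p under 0.05, as 6.19% of all probes did. Ric8b, a regulator of the olfactory G protein, had the smallest p (0.86 ± 0.24, limma adjusted p = 0.408). The 13 genes with a higher mean include Omp, at 0.0031. Its probe had reached saturation on 9 occluded, 8 open and 9 normal arrays, so this sign cannot show a rise. The other Omp probe, which was unsaturated, gave -0.02. Cnga2 (0.53) had reached saturation on 3 occluded arrays alone. With Omp and Cnga2 included, the summed linear level of the list was 352125 to 368082 in occluded, 287986 to 301151 in open and 297864 to 312366 in normal mucosa. The occluded range lay above both others. Of 12 measured markers of immature neurons, 10 had a lower mean on the occluded side, with a median of -0.20. Of these markers 0 passed and 0 had an unadjusted p under 0.05. Their sums were 74618 to 88169 in occluded, 87197 to 92475 in open and 84317 to 98406 in normal mucosa, and these ranges overlapped. Lhx2 is in both lists and counts in each.

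Markers of non-neuronal cells were followed as well, and none passed between the sides. Basal-cell markers had a lower mean on the occluded side in 8 of 8 genes (8 with no normalization, 7 with median centring), with a median of -0.21, of which 0 passed and 1 had an unadjusted p under 0.05. Their sums were 14223 to 17773 in occluded, 17245 to 21685 in open and 16817 to 20506 in normal mucosa, and these ranges overlapped. Sustentacular-cell markers had a lower mean in 6 of 6 genes (5 with no normalization, 3 with median centring), with a median of -0.16, none with an unadjusted p under 0.05, and sums that overlapped. Of these 6 markers, 2 were saturated on some arrays. Cbr2 (-0.0012) and Gstm1 (-0.0217) had median intensities of 65750 and 65740, near the 64990 of the saturated Omp probe. Their signs cannot show a fall, and they make up much of the sums. Glial markers had a lower mean in 4 of 7 genes and those of respiratory epithelium in 4 of 6. The part of these cells in the values of the release genes was not tested.

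The release genes were then set against the mature-neuron markers within each replicate, as the mean log2 level of the 9 genes minus that of 13 markers, leaving out Omp and Cnga2 for saturation. The unsaturated second Omp probe (mMR027343) was not used. It differed by -0.02 between the sides and by -0.06 in occluded against normal mucosa, so it did not rise with the 13 markers. The value itself mixes probes of different brightness and is read only between groups. It was -1.37, -1.27 and -1.16 in occluded, -0.94, -0.76 and -0.81 in open and -0.77, -0.84 and -1.01 in normal mucosa. All occluded values lay below all open and normal values, also with no normalization. Median centring takes the same amount from both means, so it gives the values of no normalization and is no further check. The group means were -1.27 ± 0.11, -0.84 ± 0.09 and -0.87 ± 0.12 (SD, n = 3 each).

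The markers and the release genes are given apart as well. The mean of the 13 markers was 13.26, 13.37 and 13.34 in occluded, 12.97, 13.04 and 13.08 in open and 12.96, 12.98 and 13.16 in normal mucosa, without overlap of occluded with the others, although occluded and open overlapped when no normalization was used. The mean of the 9 release genes was 11.88, 12.11 and 12.19 in occluded, 12.03, 12.28 and 12.26 in open and 12.19, 12.14 and 12.15 in normal mucosa, with overlap. Set against the immature-neuron markers, the release genes stood at 0.04 ± 0.17, -0.04 ± 0.08 and -0.10 ± 0.16, and the groups overlapped. Genes and markers were listed with earlier results of these data known, so this is a description with no test.

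**Figure D4:**
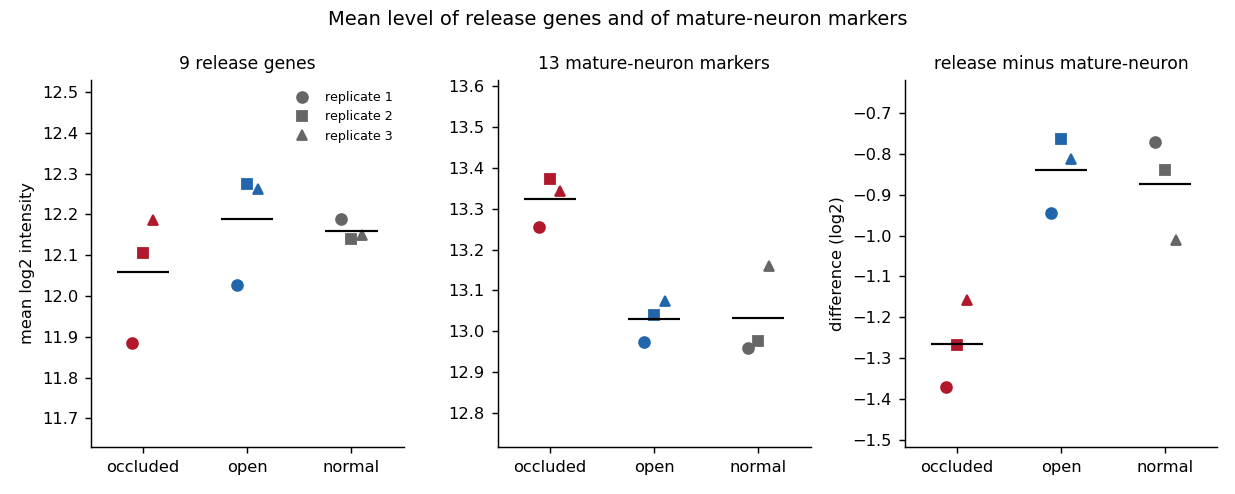
Mean log2 intensity of the 9 release genes (left), of 13 unsaturated mature-neuron markers (middle) and their difference (right) in each biological replicate, with bars at group means. The occluded differences, -1.37 to -1.16, lie below the open and normal ones, which span -1.01 to -0.76, and the middle panel shows the markers highest in occluded mucosa.

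Other cells of the region express release genes too. The summed level of 14 markers of olfactory bulb neurons was 4968 to 6679 in occluded, 4906 to 5327 in open and 4804 to 5563 in normal mucosa. Of these markers 10 lay above the noise limit on all 27 arrays, among them Gad1, Th, Tbr1 and Dlx2, while Tbx21 and Slc32a1 lay below it on 17 and 13 arrays. On the occluded side 11 of the 14 had a higher mean (8 with no normalization, 10 with median centring). Of the 14, 1 had an unadjusted p under 0.05, against 6.19% of all probes. It was Tbx21, the gene below the noise limit on 17 arrays, and it did not pass after adjustment. Markers of vomeronasal neurons summed to 24752 to 32630, 26316 to 31081 and 29288 to 31298 in the 3 groups. Gnao1, Gnai2 and Gng8 carried most of this sum, with median intensities of 15450, 7476 and 4783 against 290.5 for Trpc2. Gng8 is also in the list of immature neurons, so the sum is a poor reading of vomeronasal neurons. Of the 7 vomeronasal markers, 2 had an unadjusted p under 0.05 between the sides, against 6.19% of all probes. Both were higher in occluded mucosa and neither passed after adjustment. They were the channel gene Trpc2 (0.84 ± 0.17, limma adjusted p = 0.157) and H2-M9 (0.76 ± 0.21, adjusted p = 0.410), while Fpr-rs3 lay below the noise limit on 27 of 27 arrays. Those of peptidergic sensory or endocrine cells summed to 10424 to 12536, 9358 to 10633 and 8989 to 10943. No sum of these 3 lists stood clear of both other groups, and their part in the values of the release genes was not tested.

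The release set is a small part of the terminal, so 86 further genes of the same steps were listed, of which 77 were measured. None passed in any of the 3 comparisons (limma). At an unadjusted p under 0.05 there were 2 between the sides (Syt4 and Svop, both lower), 1 in occluded against normal mucosa and 2 in open against normal mucosa. Over all probes the shares were 6.19%, 2.88% and 1.59%, so the count between the sides is no larger than that share would give. Among SNARE partners and fusion regulators such as the complexins, 12 of 16 had a lower mean on the occluded side (11 with no normalization, 10 with median centring), with a median of -0.08. Doc2a, a calcium-binding fusion regulator, had the smallest p of that group, at -0.24 ± 0.13 (adjusted p = 0.916). Cplx2 had the largest difference, -1.63 ± 1.03, which came from a single low replicate: its levels were 4.57, 9.56 and 9.32 in occluded and 9.85, 9.58 and 8.92 in open mucosa.

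Among the synaptotagmins other than Syt1, 7 of 11 had a lower mean on the occluded side (9 with no normalization, 6 with median centring), with a median of -0.06. Syt4, a synaptotagmin that does not bind calcium in the way of Syt1, had levels of 11.61, 11.57 and 11.60 in occluded, 12.61, 12.05 and 11.93 in open and 11.36, 11.77 and 11.53 in normal mucosa. The 3 open values lay above the other 6, while 2.94% of all probes had occluded values below the open ones without overlap. Syt4 differed by -0.60 ± 0.18 between the sides (limma adjusted p = 0.466) and by 0.64 ± 0.23 in open against normal mucosa (adjusted p = 0.999995). These comparisons share the open samples. Its second probe gave -0.34 between the sides.

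Of the vesicle membrane and coat proteins, 8 of 15 had a higher and 7 a lower mean on the occluded side, with a median of 0.0056. Svop, a transporter-like protein of the vesicle membrane related to Sv2a, had levels of 8.08, 8.59 and 8.504 in occluded, 8.64, 8.72 and 9.34 in open and 8.79, 8.84 and 8.94 in normal mucosa. Its occluded values lay below all others, while 2.94% of all probes had occluded values below the open ones without overlap. The difference was -0.51 ± 0.19 between the sides (limma adjusted p = 0.665) and -0.47 ± 0.24 against normal mucosa (adjusted p = 0.999987). Rab3c, a relative of Rab3a, gave -1.07 ± 0.51 (adjusted p = 0.852) with 3 arrays below the noise limit. The remaining vesicular glutamate transporter with a small p, Slc17a8 (VGLUT3), lay below the noise limit on 23 of 27 arrays and is given no fold.

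The active zone scaffold and calcium channels had 7 of 13 genes with a higher mean on the occluded side and a median of 0.07. Cacna1b, the pore subunit of the N-type calcium channel, had the smallest p, at 0.35 ± 0.15 (adjusted p = 0.809). The scaffold gene Erc2 gave -0.24 ± 0.13 (adjusted p = 0.908). The genes of vesicle recycling had 7 of 13 higher and a median of 0.0096, which was -0.03 with no normalization, and the endocytic genes Cltb and Picalm, with the smallest p of that group, gave -0.26 ± 0.17 and -0.56 ± 0.50.

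The genes of glutamate supply and presynaptic inhibition had 7 of 9 with a higher mean on the occluded side and a median of 0.11. Slc38a1, a glutamine transporter, gave 0.40 ± 0.26 (adjusted p = 0.949), and Drd2, the dopamine receptor through which bulb interneurons inhibit release from olfactory axons, gave 0.27 ± 0.21 (adjusted p = 0.976). Neither passed the test.

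**Figure D5:**
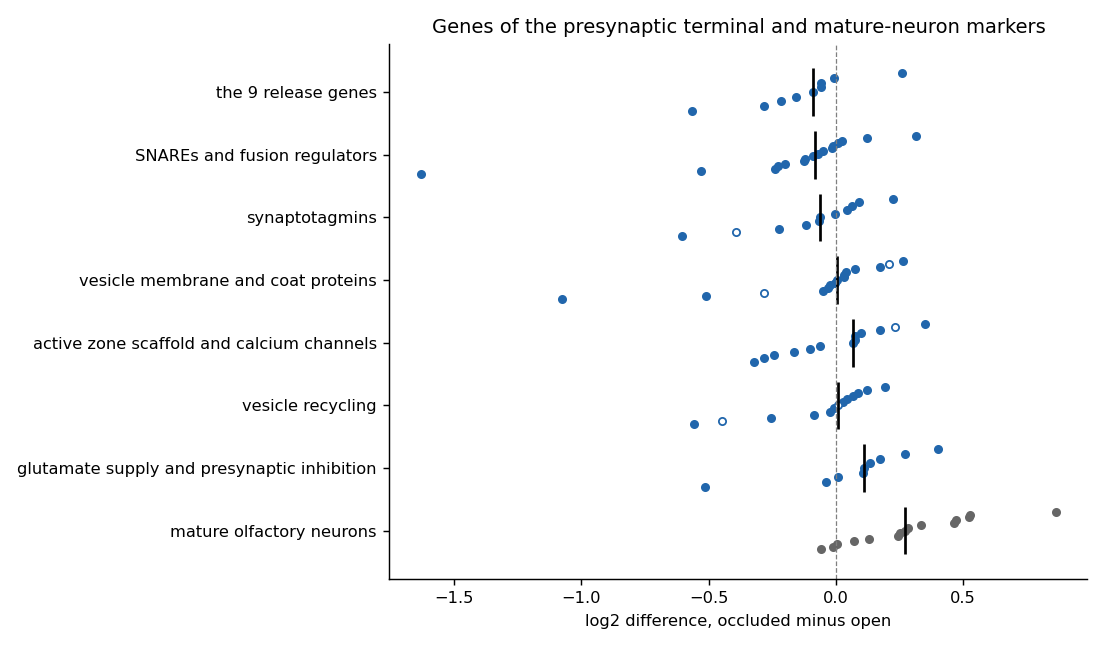
Log2 difference between occluded and open mucosa (horizontal axis) of each measured gene in the 9 release genes, in 6 further groups of presynaptic genes and in the mature-neuron markers. Bars are medians and open circles are genes below the noise limit on most arrays. The medians of the presynaptic groups lie between -0.09 and 0.11, and that of the mature-neuron markers at 0.27.

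The 9 release genes had no common course over the 9 biological replicates. Over their 36 gene pairs the Pearson r of the 9 log2 values had a median of -0.092 and ran from -0.854 (Snap25 and Vamp2) to 0.888 (Syn1 and Sv2a). Slc17a6 and Rab3a, both lowest in replicate 1 of the operated mice, had an r of 0.88. The 9 points are 6 individuals on arrays scaled together, and these values are descriptions. By mean r with the 9 genes, the nearest of 14766 other named genes were Olfr790 (0.262), Dennd2a (0.246), Oxnad1 (0.246), Atp6v1e1 (0.245) and Rasl11a (0.245), and the r of Olfr790 with single members ran from -0.41 to 0.679.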

How the data were processed

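The deposited table holds linear probe intensity values of 29922 probes on 27 one-colour arrays, from Cy5-labelled amplified RNA, per the labels. The scanner and how the authors subtracted background or normalized are not stated in those labels. Array medians lay between 123 and 274, and between 8.57% and 19.8% of an array's probes lay below its noise limit (3 times the root mean square of its negative values, 11.6 to 24.1). The number of biological replicates, 3 per group, limits the precision. A value at 99.5% of an array's maximum or above counted as saturated.

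From the deposited intensities, values at or below 0 were set to 0.912, log2 values were quantile normalized, since array medians differed by 1.15 (limit 0.2), and the 3 arrays of a replicate were averaged. limma 3.58.1 in R 4.3.3 (reading the table with the package data.table, version 1.17.8, and using statmod 1.5.0) fitted all probes, the 3 groups and, through duplicateCorrelation, the mouse as a random block (correlation 0.389), two-sided, with Benjamini-Hochberg adjustment over 29922 probes and a threshold of 0.05. Intervals are 95%, unadjusted. P-values measure the spread between these replicates.

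The series design states that open and occluded samples share individuals. Deviations from group means correlated at 0.516, -0.004 and 0.142 in pairs 1, 2 and 3. Normal samples come from other mice, yet at the same numbers they gave 0.353, 0.067 and 0.002 with occluded samples. With open samples they gave 0.394, 0.104 and 0.071. The highest value was thus at number 1 in each comparison, also between different mice. Whether an equal number names the same mouse cannot be decided from these correlations. Symbols came from the array's annotation file (21020 probes with 1 symbol, 0 with several, 8902 unnamed), with 3410 updated through RefSeq. The probe with the highest mean represents a gene. Named are all probes of the 9 genes and, of each further list, the 2 genes with the smallest p in a comparison where that adds to the account, Kirrel2 and S100a5 as a check, and the 5 genes of most similar course. Cplx2, Ric8b and Slc17a8 fall under this rule. Further probes of Syt4, Cacna1b and Omp do not, nor do markers named for their signal level, saturation or place in more than 1 list. The genes, lists and alternatives were chosen with earlier results of these data known. Alternatives covered the block, normalization, averaging, low values, dim probes, groups in the fit, representative probe and replicates left out. The sequences of the probes were not used.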

Additional observations from a re-analysis of the deposited data

How the results depend on the processing

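None of the 522 alternative values of the 27 release-gene differences passed an adjusted p of 0.05 in limma, and 62 turned in sign, 44 of them with a replicate left out. Slc17a6, Stx1a, Syn1 and Syp kept their sign in occluded against open mucosa under every alternative run. Signs turned when the probes of a gene were averaged for Snap25 (0.0217) and Sv2a (0.0442) between the sides and for Syt1 (0.0449) and Sv2a (-0.0778) in open against normal mucosa. With median centring they turned between the sides for Snap25 (0.095), Syt1 (0.033), Vamp2 (0.0429) and Rab3a (0.0014), and in open against normal for Sv2a (-0.0025). With the median of the 3 arrays they turned for Snap25 between the sides (0.014) and in open against normal for Syt1 (0.0438) and Sv2a (-0.0227). With no normalization they turned for Snap25 between the sides (0.0451), in occluded against normal for Snap25 (0.0473), Syt1 (0.0506) and Stx1a (0.0154), and in open against normal for Snap25 (0.0022) and Syt1 (0.0674). The causes were not tested.

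With a replicate left out, the ranges that crossed 0 were as follows. Between the sides these were Snap25 (-0.056 to 0.0294), Syt1 (-0.22 to 0.10) and Vamp2 (-0.10 to 0.0055). In occluded against normal mucosa they were Slc17a6 (-1.04 to 0.0316), Snap25 (-0.22 to 0.0824), Syt1 (-0.21 to 0.0105), Vamp2 (-0.0082 to 0.19), Rab3a (-0.21 to 0.40), Sv2a (-0.33 to 0.0483) and Syp (-0.18 to 0.34). In open against normal mucosa they were Slc17a6 (-0.41 to 0.62), Snap25 (-0.19 to 0.0892), Syt1 (-0.20 to 0.13), Syn1 (-0.061 to 0.20), Rab3a (-0.12 to 0.57), Sv2a (-0.18 to 0.21) and Syp (-0.54 to 0.18).

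Over the array, the 66 probes that passed between the sides became 3 with no replicate block, 0 with pairs as a fixed replicate block (1705 at an unadjusted p under 0.05), 0 with no normalization (714 unadjusted), 37 with median centring and 14 with only the 2 groups in the fit. They became 2 with the number as a fixed replicate block, an alternative chosen after seeing the data, as was leaving a number out of all 3 groups. With a replicate left out they ranged from 0 to 49. The 2 probes of occluded against normal mucosa became 0 with no normalization, with a floor of 16, with the number as a replicate block or with only the 2 groups (449, 903, 1338 and 942 unadjusted), 5 with the median of arrays, 24 with an offset of 50 and 13 without the dimmest 30% of probes. They ranged from 0 to 1 with a replicate left out. No release gene was called in any of these fits, so the replicate block changed no call among them. Dim signal limits the second Snap25 probe and the genes named as below the noise limit.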
